A study of Mus musculus with 9 samples.

Results

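A pair of guide RNAs named for Tada2b was compared in B16F10 cells, a transplantable mouse melanoma line: 3 RNA-seq libraries titled Tada2bsg2 (guide 2) were set against 3 titled Tada2bsg1 (guide 1). The libraries were chosen by title alone, with all genes kept, and make up 6 of the 9 libraries of the series. Both groups carry the genotype label Tada2b knockout and were grown in the same medium, DMEM with 10% fetal bovine serum, and no drug or time point is given for either. The remaining 3 libraries carry a guide named for GFP (GFPsg) and the genotype label WT. They enter no test below, and their levels are printed only as a reference on the same scale. The labels do not say whether a guide stands for 1 clone or for a pool of edited cells, nor whether replicates were separate cultures. What differs between the guides can therefore not be told apart from what differs between the cell populations that carry them, and p-values measure only the spread between these libraries, which may be technical.

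Tada2b encodes an adaptor protein of SAGA, a coactivator complex that is brought to promoters by transcription factors and acetylates histones there through the enzymes Kat2a or Kat2b. Melanoma cells of the pigmented kind run a melanocyte programme headed by the transcription factors Mitf and Sox10, which switch on the enzymes that make melanin and the membrane proteins of the melanosome, the organelle that holds it. Interferon-stimulated genes, by contrast, are switched on downstream of interferon receptors and code for antiviral proteins. Genes of both classes are described below.

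Promoter sequences of 6 genes that the comparison turns on are shown first, 3 that were higher with guide 2 and then 3 that were lower. They were picked for holding 1 of 2 motifs in that stretch, and many of the genes with the largest changes hold none: of the 12 largest rises, 9 had a promoter entry and 3 of these held the first motif, and of the 12 largest falls, 10 had one and 4 of these held the second. They come from RefSeq (GRCm38.p6), run 5′ to 3′ on the strand of the gene, and are 100 bases cut from the 250 bases before the annotated start. In the first 3 the capitals mark TCATGTG, the core of the M-box that Mitf family factors recognize, and in the last 3 a pair of GAAA half-sites with any 2 bases between them, as in the interferon-stimulated response element, on either strand. Apol9b holds 2 overlapping matches on the opposite strand, so its capitals run together.
Tyr (chr7:87493513-87493612, minus strand): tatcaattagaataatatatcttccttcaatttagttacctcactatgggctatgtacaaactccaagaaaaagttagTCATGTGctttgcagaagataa
Trpm1 (chr7:64153643-64153742, plus strand): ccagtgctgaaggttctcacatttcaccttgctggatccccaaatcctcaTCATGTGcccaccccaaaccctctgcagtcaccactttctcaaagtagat
Mc1r (chr8:123406980-123407079, plus strand): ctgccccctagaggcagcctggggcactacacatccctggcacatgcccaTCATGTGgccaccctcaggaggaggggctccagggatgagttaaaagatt
Ifi205 (chr1:174031840-174031939, minus strand): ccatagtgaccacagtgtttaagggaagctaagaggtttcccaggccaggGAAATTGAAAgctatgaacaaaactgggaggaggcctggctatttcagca
Ifi211 (chr1:173913047-173913146, minus strand): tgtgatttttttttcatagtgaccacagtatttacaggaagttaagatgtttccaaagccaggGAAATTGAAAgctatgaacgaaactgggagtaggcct
Apol9b (chr15:77728972-77729071, plus strand): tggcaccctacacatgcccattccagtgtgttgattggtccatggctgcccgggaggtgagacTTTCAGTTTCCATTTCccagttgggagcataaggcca

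Searched on both strands in the 250 bases before the start, TCATGTG was found in 1006 of 27025 genes with a promoter entry (3.72%). Of the 26 genes on the list of melanin synthesis and melanosomes, 21 had an entry and 8 of these held the motif (38.1%), as did 1 of 17 lineage regulators with an entry. The GAAA pair was found in 936 of the 27025 genes (3.46%), in 24 of 48 genes of the interferon response list with an entry and in 0 of the 21 melanosome genes. The motif in Tyr starts 22 bases before the annotated start, that in Mc1r 52 and that in Trpm1 142. A match is a run of letters in this window, and no binding was measured.

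The 6 libraries held 70.8 to 76.9 M counts (M, mega), guide 1 between 73.5 and 76.9 M and guide 2 between 70.8 and 76.2 M, so depth was even. Guide 2 libraries spread more than guide 1 libraries. Among 10548 genes averaging 5 CPM or more (CPM, reads of a gene per 1 M reads), the median coefficient of variation was 4.39% with guide 2 and 2.97% with guide 1, and it was larger with guide 2 for 66.0% of them. On the second principal component of the 6 libraries (20.2% of the variance) guide 2 replicate 1 lay at 23.42, while guide 2 replicates 2 and 3 lay at −14.36 and −17.42 and guide 1 between −2.74 and 9.79. The first component (25.7%) separated the guides, with guide 1 between −18.82 and −10.34 and guide 2 between 11.4 and 20.45.

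Guide 2 replicate 1 also differed by gene length. Length here is the total length of all annotated exons of a gene, with overlaps counted once. Against the guide 1 mean, the median log2 ratio of this library ran from −0.12 in the quintile of shortest genes to 0.11 in the longest. The same 2 values were −0.0492 and 0.0484 in replicate 2, and −0.00977 and 0.00311 in replicate 3. The quintiles hold genes of 5 CPM or more, 2111 in the shortest and 2109 in the longest. Genes called higher with guide 2 numbered 36 in the shortest quintile and 134 in the longest, and genes called lower 69 and 14. Over all genes tested, with no limit on CPM, 2.57% were called higher and 1.33% lower. Counts without guide 2 replicate 1 are given below where they differ from those with all 6 libraries.

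**Figure D1:**
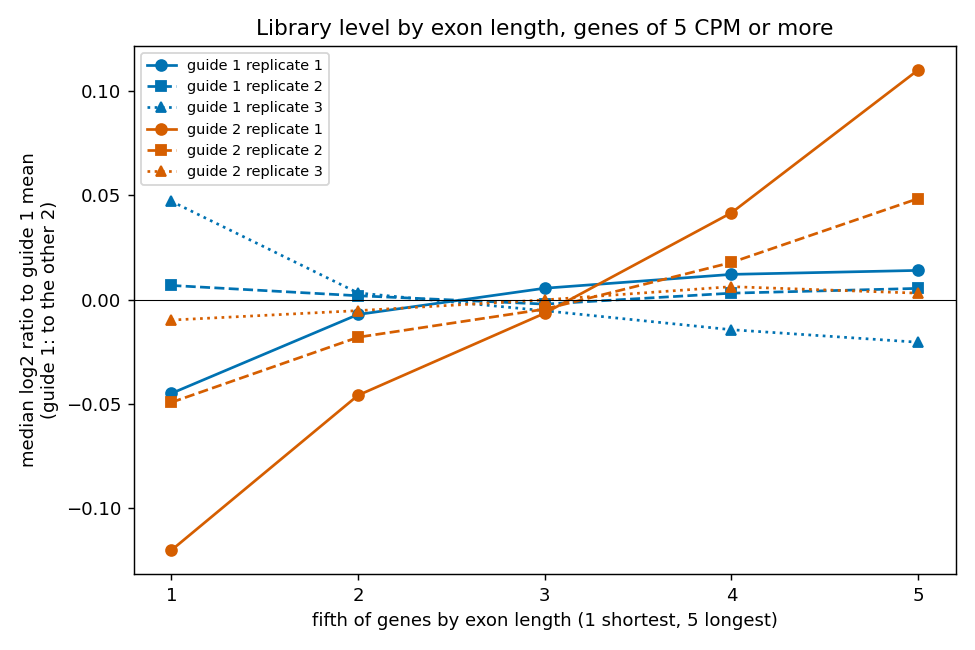
Median log2 ratio of each library to the guide 1 mean (for a guide 1 library, to the other 2 guide 1 libraries) against quintiles of genes by exon length, for genes of 5 CPM or more. Guide 2 replicate 1 rises from −0.12 to 0.11, and guide 2 replicate 3 stays between −0.00977 and 0.00621.

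The targeted gene differed between the guides. Tada2b (ENSMUSG00000029196; chromosome 5 from 36473670 to 36484285 on the minus strand, mm10, GENCODE M21) had 2548, 2479 and 2552 reads with guide 1 and 2201, 2016 and 1856 reads with guide 2. Scaled for depth, these were 32.9, 33.97 and 33.4 CPM with guide 1 and 29.6, 26.5 and 26.3 CPM with guide 2, and the groups did not overlap. The level with guide 2 was lower (log2 change -0.28 ± 0.05 (SE), adjusted p = 0.00821, edgeR quasi-likelihood test with Benjamini-Hochberg adjustment). In GFPsg, Tada2b was at 28.4, 25.5 and 26.98 CPM, which the guide 2 libraries overlapped and the guide 1 libraries exceeded. A count over the whole gene does not show whether an edit was made or whether protein was lost, so it checks neither label. The adjusted p was 0.062 without guide 1 replicate 2 and 0.0557 without guide 2 replicate 2, with log2 changes of −0.27 and −0.26.

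Other subunits of the complexes that hold Tada2b did not pass the test. Of 31 tested genes of SAGA and the related ATAC complex, Tada2b was the 1 gene called (3.23%, beside 3.89% over all genes). The median log2 change of the list was −0.00551. The acetyltransferase genes Kat2a (0.08 ± 0.04, adjusted p = 0.382) and Kat2b (0.00 ± 0.04, adjusted p = 0.999) and the large scaffold gene Trrap (0.15 ± 0.07, adjusted p = 0.292) did not pass the test by edgeR. Among 17 tested genes within 1 Mb of Tada2b, 1 passed (5.88%, beside 3.89% over all genes). This was Htra3, a secreted serine protease gene, at 10.7 ± 0.378 CPM with guide 1 and 8.82 ± 0.249 with guide 2 (mean ± SD, n = 3). Its log2 change was -0.28 ± 0.07 (adjusted p = 0.0327 by edgeR). It was no longer called without any 1 of 4 libraries, guide 1 replicates 1, 2 and 3 and guide 2 replicate 2. The neighbour Grpel1, whose annotated span overlaps that of Tada2b on the other strand, was at 118 ± 3.59 and 106 ± 5.82 CPM (-0.16 ± 0.04, adjusted p = 0.0648), and reads in the overlap cannot be told apart without a stated strand setting.

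Over all genes the guides differed by small amounts. Of 17383 genes tested, 677 were called at an adjusted p under 0.05 (3.89%), 446 higher with guide 2 (2.57%) and 231 lower (1.33%). The median size of a called change was 0.276 on the log2 scale, 607 of the 677 were under 1.5-fold, and 17 reached 2-fold (0.0978%). Protein-coding genes made up 645 of the calls. The groups did not overlap in CPM for 4130 of the tested genes (23.8%), so that not overlapping alone says little here. Over all of them the middle log2 change was −0.00483.

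The number of calls depended on single libraries. It was 431, 286 and 291 without guide 1 replicates 1, 2 and 3, and 331 and 1423 without guide 2 replicates 2 and 3. Without guide 2 replicate 1 it was 664, with 434 higher and 230 lower, of which 366 and 184 were among the genes called with all 6 libraries. With a per-library correction for exon length, added after the data were seen, 580 genes were higher and 319 lower.

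**Figure D2:**
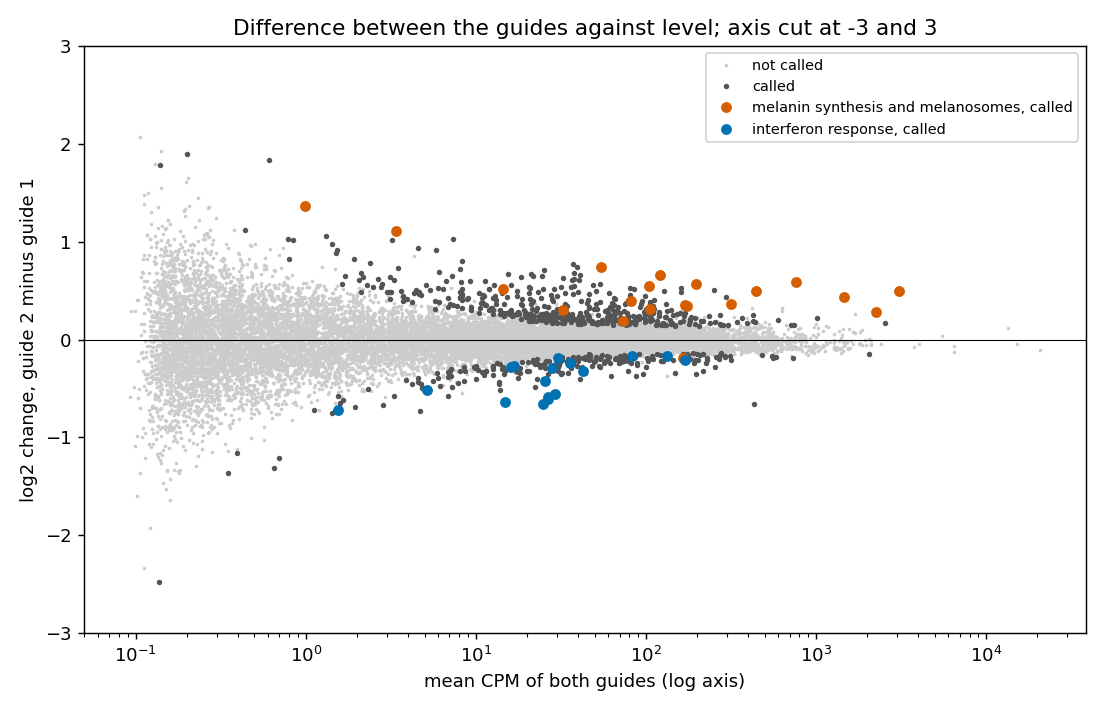
Log2 change of guide 2 minus guide 1 against the mean CPM of both guides (log axis) for the 17383 genes tested, with called genes dark, called melanosome genes orange and called interferon response genes blue. The axis is cut at −3 and 3 and leaves out Col6a5; the orange points lie above 0 except Slc7a11, and the blue points lie below 0.

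Abca12, Adam12 and Nr4a3 rose most with guide 2. By the rule used here, 12 genes were taken as the largest rises among called genes that averaged 5 CPM or more, whose groups did not overlap and whose symbol is no predicted or clone name. Abca12, a lipid transporter of the ABC family (chromosome 1 from 71242276 to 71414910 on the minus strand), was at 4.68, 4.80 and 5.09 CPM with guide 1 and 10.2, 10.1 and 9.44 CPM with guide 2. This was 2.04-fold higher with guide 2 (log2 change 1.03 ± 0.08 (SE), adjusted p = 4.86e-06 by edgeR), and Abca12 was the 1 called gene averaging 5 CPM or more to reach 2-fold. Adam12, a membrane-bound metalloprotease gene, was at 4.56, 3.51 and 4.15 CPM with guide 1 and 8.82, 7.49 and 6.68 CPM with guide 2 (log2 change 0.91 ± 0.12 (SE), adjusted p = 0.000487). Its highest guide 2 value was that of replicate 1, and the groups did not overlap, which the rule required. Nr4a3, an orphan nuclear receptor gene of the early response class, showed the same order of guide 2 replicates. It was at 6.95, 5.65 and 5.48 CPM with guide 1 and 12.3, 10.3 and 9.02 CPM with guide 2 (log2 change 0.80 ± 0.12 (SE), adjusted p = 0.00119).

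Of these 12, 3 were on the lists of melanosome genes and of lineage regulators, Trpm1, Mc1r and Kit. Tspan10, a tetraspanin gene active in pigment cells (chromosome 11 from 120442644 to 120446950 on the plus strand), was at 28.6, 28.5 and 25.7 CPM with guide 1 and 44.2, 47.4 and 49.5 CPM with guide 2 (log2 change 0.77 ± 0.06 (SE), adjusted p = 4.32e-06). Trpm1, the melastatin cation channel gene whose promoter is printed above (chromosome 7 from 64153835 to 64269775 on the plus strand), was at 40.3, 41.3 and 40.2 CPM with guide 1 and 65.6, 71.3 and 67.2 CPM with guide 2, a 1.67-fold difference (log2 change 0.74 ± 0.04 (SE), adjusted p = 1.35e-06). In both genes each guide 2 library lay far outside the narrow guide 1 range. Mc1r, the receptor for melanocyte-stimulating hormone (chromosome 8 from 123407107 to 123410744 on the plus strand), was at 19.9, 18.7 and 18.9 CPM with guide 1 and 31.5, 30.7 and 31.6 CPM with guide 2 (log2 change 0.71 ± 0.05 (SE), adjusted p = 3.06e-06). Kit, the receptor for stem cell factor that melanoblasts need to survive, was at 4.16, 5.15 and 4.60 CPM with guide 1 and 7.17, 7.74 and 7.53 CPM with guide 2 (log2 change 0.69 ± 0.09 (SE), adjusted p = 0.000639). Sytl2, which links Rab27a to secretory vesicles, was at 30.2, 28.9 and 27.8 CPM with guide 1 and 47.4, 46.1 and 45.9 CPM with guide 2 (log2 change 0.68 ± 0.05 (SE), adjusted p = 2.57e-06).

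The other 4 genes follow. Enpp2 codes for autotaxin, the secreted enzyme that makes lysophosphatidic acid, and was at 28.8, 31.2 and 28.5 CPM with guide 1 and 48.7, 51.8 and 48.1 CPM with guide 2 (log2 change 0.75 ± 0.05 (SE), adjusted p = 2.57e-06). Dock10, an activator of small GTPases, was at 6.06 and 10.02 CPM on average (log2 change 0.73 ± 0.08 (SE), adjusted p = 0.000144). Fam174b and Ano3, the latter of the anoctamin membrane protein family, changed by 0.67 ± 0.06 and 0.67 ± 0.05 on the log2 scale (adjusted p = 1.96e-05 and 9.28e-06 by edgeR). All 12 stayed called without guide 2 replicate 1 and in the other 16 alternatives computed for single genes. Each was also higher in GFPsg than with either guide: mean levels in GFPsg were 37.5 CPM for Abca12, 383 CPM for Trpm1 and 21.2 CPM for Kit.

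Genes of melanin synthesis and the melanosome rose together with guide 2. Of 26 tested, 19 were called higher and 1 lower, and the median log2 change was 0.357, against 2.57% called higher and a median of −0.00483 over all genes tested. Without guide 2 replicate 1, 18 were called higher, and over all alternatives with single-gene calls the count ran from 18 to 21. Summed over the list, the level was 8310 to 8610 CPM with guide 1 and 11200 to 11300 CPM with guide 2, beside 28500 to 29700 CPM in GFPsg. In bulk RNA a smaller share of pigmented cells and less of these transcripts per cell cannot be told apart.

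The enzymes of melanin synthesis were each higher. Tyr, the rate-limiting tyrosinase (chromosome 7 from 87424771 to 87493512 on the minus strand), was at 94.2, 92.96 and 95.2 CPM with guide 1 and 141, 147 and 157 CPM with guide 2 (log2 change 0.66 ± 0.04 (SE), adjusted p = 2.57e-06 by edgeR). Tyrp1, which oxidizes a later intermediate, was at 2508, 2649 and 2522 CPM with guide 1 and 3603, 3643 and 3605 CPM with guide 2 (log2 change 0.50 ± 0.03 (SE), adjusted p = 2.57e-06). Dct, the dopachrome tautomerase, was at 1195, 1248 and 1262 CPM with guide 1 and 1625, 1658 and 1727 CPM with guide 2 (log2 change 0.43 ± 0.04 (SE), adjusted p = 1.03e-05). In all 3 the lowest guide 2 library exceeded the highest guide 1 library by a margin wider than the range of either group. These 3 were chosen after their values were seen.

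Structural and transport genes of the melanosome followed. Pmel, the protein of the fibrils on which melanin is laid down, was at 608, 613 and 606 CPM with guide 1 and 904, 926 and 923 CPM with guide 2 (log2 change 0.59 ± 0.03 (SE), adjusted p = 1.23e-06). Slc45a2, a transporter of the melanosome membrane, was at 157, 161 and 155 CPM with guide 1 and 234, 234 and 235 CPM with guide 2 (log2 change 0.57 ± 0.03 (SE), adjusted p = 1.48e-06). Mlana was at 355, 386 and 368 CPM with guide 1 and 488, 529.5 and 548 CPM with guide 2 (log2 change 0.50 ± 0.05 (SE), adjusted p = 2.74e-05), and Oca2, a membrane protein gene of the melanosome, at 2.49, 2.14 and 1.79 CPM with guide 1 and 5.14, 4.66 and 4.10 CPM with guide 2 (log2 change 1.11 ± 0.13 (SE), adjusted p = 0.000271). The carriers that move melanosomes were higher too: Rab27a, Mlph and Myo5a, which form the link to actin, had log2 changes of 0.31, 0.54 and 0.36 (adjusted p = 0.000387, 4.6e-06 and 0.000249 by edgeR). The 1 member called lower was Slc7a11, the cystine transporter gene, at 177 ± 3.71 and 156 ± 9.43 CPM (-0.19 ± 0.04, adjusted p = 0.0317), and it was not called without guide 1 replicate 1, 2 or 3 or guide 2 replicate 2. The 6 members that were not called were Hps1, Hps4, Hps5, Lyst, Ap3b1 and Bloc1s1, which serve organelle biogenesis in many cell types.

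Regulators of the melanocyte lineage showed the same direction. Of 18 tested, 10 were called higher by edgeR and 0 lower (1 at an unadjusted p under 0.05, 0 by DESeq2), with a median log2 change of 0.33. The share called higher over all genes was 2.57%. Without guide 2 replicate 1 the count for the list was also 10, and over the alternatives it ran from 8 to 10. Mitf (chromosome 6 from 97807052 to 98021349 on the plus strand) was at 247, 255 and 248 CPM with guide 1 and 335, 340.1 and 339.9 CPM with guide 2 (log2 change 0.44 ± 0.03 (SE), adjusted p = 5.72e-06 by edgeR). Sox10 (chromosome 15 from 79154908 to 79165240 on the minus strand) was at 66.5, 68.7 and 67.8 CPM with guide 1 and 95.1, 90.98 and 91.7 CPM with guide 2 (log2 change 0.45 ± 0.04 (SE), adjusted p = 9.32e-06). Cdk2, a cell cycle kinase gene that shares its locus with Pmel, rose by 0.40 ± 0.04 (adjusted p = 2.68e-05). The neural crest receptor gene Erbb3 (0.51), the factor genes Sox5 (0.51), Sox9 (0.37), Tfap2a (0.29) and Zeb2 (0.19) were also called higher, on the log2 scale. Pax3, which acts upstream of Mitf, had a log2 change of 0.04 ± 0.04 (adjusted p = 0.552) and Met, a receptor gene that Mitf can drive, one of 0.09 ± 0.04 (adjusted p = 0.2), and neither was called.

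**Figure D3:**
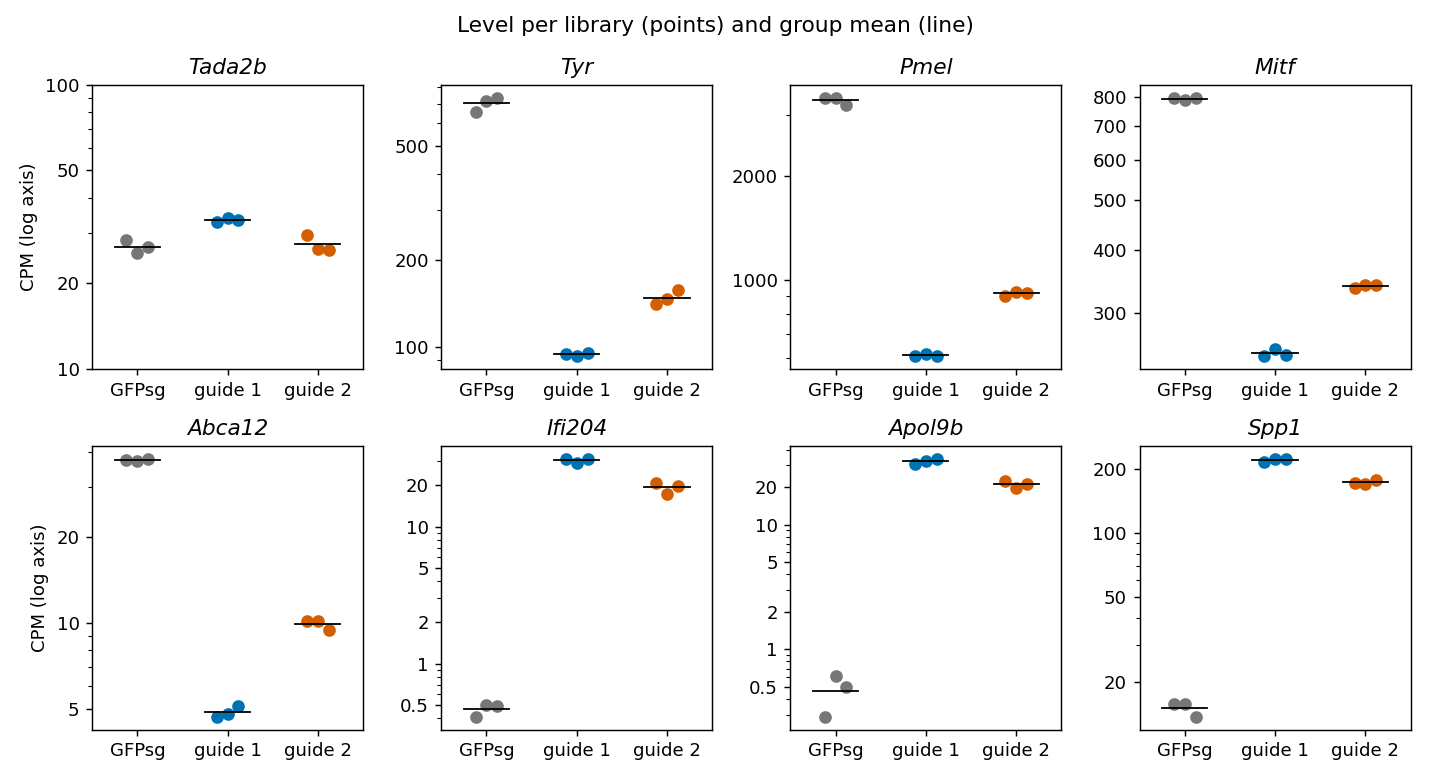
CPM (log axis, a separate scale in each panel) of 8 genes in each library, with points for libraries and a line for the group mean. Tyr, Pmel, Mitf and Abca12 are higher with guide 2 than with guide 1 and highest in GFPsg; Ifi204, Apol9b and Spp1 are lower with guide 2 than with guide 1 and lowest in GFPsg; Tada2b is lower with guide 2 than with guide 1.

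The 12 largest falls were taken by the same rule as the rises, and 6 of them were on the interferon response list. A group of 3 genes of the p200 family, which sense DNA or act in the nucleus after interferon, lie together on chromosome 1. Ifi204 (chromosome 1 from 173747293 to 173766943 on the minus strand) was at 31.3, 28.8 and 31.1 CPM with guide 1 and 20.8, 17.2 and 19.7 CPM with guide 2 (log2 change -0.66 ± 0.07 (SE), adjusted p = 5.85e-05 by edgeR). Ifi205 (chromosome 1 from 174011998 to 174031810 on the minus strand) was at 18.1, 18.8 and 17.3 CPM with guide 1 and 11.5, 11.3 and 11.9 CPM with guide 2 (log2 change -0.64 ± 0.06 (SE), adjusted p = 2.74e-05), and Ifi211 (chromosome 1 from 173896345 to 173913046 on the minus strand) was at 35.7, 34.03 and 35.2 CPM with guide 1 and 24.1, 23.5 and 23.9 CPM with guide 2 (log2 change -0.55 ± 0.05 (SE), adjusted p = 9.28e-06). For each, the guide 1 and guide 2 libraries did not overlap, which the rule required. The p200 genes are close copies of each other, so that how reads were divided among them is uncertain.

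The apolipoprotein L genes Apol9a and Apol9b fell to a like extent. Apol9b (chromosome 15 from 77729039 to 77736382 on the plus strand) was at 30.7, 32.2 and 33.9 CPM with guide 1 and 22.3, 19.8 and 21.3 CPM with guide 2 (log2 change -0.61 ± 0.06 (SE), adjusted p = 2.74e-05 by edgeR), a 1.53-fold lower level with guide 2. Apol9a (chromosome 15 from 77403789 to 77411135 on the minus strand) was at 30.3, 31.7 and 33.5 CPM with guide 1 and 21.2, 19.8 and 22.8 CPM with guide 2 (log2 change -0.58 ± 0.06 (SE), adjusted p = 6.88e-05). Their promoter stretches share the same pair of overlapping matches, and the genes are near-identical, so their 2 counts cannot be taken as independent. Sp100, a component of nuclear bodies, was at 6.02, 6.00 and 6.19 CPM with guide 1 and 4.48, 3.53 and 4.78 CPM with guide 2 (log2 change -0.51 ± 0.11 (SE), adjusted p = 0.0174). Its lowest value was guide 2 replicate 2, and it was no longer called in 3 of 17 alternatives. In GFPsg these genes were close to absent, with mean levels of 0.47 CPM for Ifi204, 0.66 CPM for Ifi211 and 0.464 CPM for Apol9b.

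The interferon response list as a whole lay low with guide 2, by less than these leaders. Of 61 tested genes, 17 were called lower by edgeR and 0 higher (0 also at an unadjusted p under 0.05 and by DESeq2), beside 1.33% called lower over all genes. The median log2 change was −0.146, and 57 of the 61 were below 0. The count of calls was 26 without guide 2 replicate 1, 7 without guide 2 replicate 2, 9 without guide 1 replicate 2 and 7 without guide 1 replicate 3. Among the 17 were the ubiquitin-like modifier gene Isg15 at 45.6, 47.3 and 48.7 CPM with guide 1 and 36.8, 36.5 and 40.5 CPM with guide 2 (log2 change -0.32 ± 0.05 (SE), adjusted p = 0.0023 by edgeR) and its deconjugating enzyme Usp18 at 37.04, 39.1 and 40.2 CPM with guide 1 and 33.2, 31.8 and 33.5 CPM with guide 2 (log2 change -0.24 ± 0.05 (SE), adjusted p = 0.0103). Trim30a fell from 29.4 ± 1.55 to 21.96 ± 1.64 CPM (mean ± SD, n = 3; -0.42 ± 0.06, adjusted p = 0.00134), and Oas1a, an RNA-activated synthetase gene, from 31.00 ± 1.58 to 25.3 ± 1.55 CPM (-0.30 ± 0.06, adjusted p = 0.0101).

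Several central members of the interferon list did not pass the test. Rsad2, an antiviral radical enzyme gene, was at 153, 155 and 157 CPM with guide 1 and 157, 134 and 149 CPM with guide 2 (log2 change -0.08 ± 0.05 (SE), adjusted p = 0.44 by edgeR), with guide 2 replicate 1 above all guide 1 libraries. Ddx58, which codes for the RNA sensor RIG-I, was at 112 and 111 CPM (log2 change -0.01 ± 0.05 (SE), adjusted p = 0.913). Ifit1 (-0.05), Irf9 (-0.07) and Irf7 (-0.41, adjusted p = 0.0806) were also not called. On the list of interferon receptors and signalling, 1 of 22 was called (4.55%, beside 3.89% over all genes), and the median log2 change was −0.0115. The called gene was Irf1 (-0.18 ± 0.04, adjusted p = 0.028 by edgeR), not called without guide 1 replicate 1, 2 or 3 or guide 2 replicate 2. Without guide 2 replicate 1, 2 genes of this list were called. The receptor genes Ifnar1, Ifnar2, Ifngr1 and Ifngr2 had log2 changes of 0.05, 0.01, -0.08 and 0.09. Of 22 genes of MHC class I presentation, 2 were called lower (9.09%, beside 1.33% over all genes). These were H2-D1 (-0.18 ± 0.04, adjusted p = 0.0363 by edgeR) and Psme2 (-0.23 ± 0.05, adjusted p = 0.0181). B2m, the shared light chain, was not called (-0.07 ± 0.04, adjusted p = 0.314). The MHC class I count was 0 without guide 1 replicate 3 or guide 2 replicate 2, 1 without guide 1 replicate 1 or 2 and 3 without guide 2 replicate 1.

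The other large falls belong to several classes. Gsta4, a glutathione transferase gene (chromosome 9 from 78182774 to 78209349 on the plus strand), was at 16.9, 16.05 and 16.1 CPM with guide 1 and 11.6, 11.7 and 11.02 CPM with guide 2 (log2 change -0.51 ± 0.06 (SE), adjusted p = 0.000188 by edgeR). Its GFPsg libraries, at 10.2, 12.6 and 12.5 CPM, spanned the guide 2 values, which set it apart among these 12 genes, the other 11 being lowest in GFPsg. Ankrd1, a muscle ankyrin repeat gene that YAP and TEAD factors drive, was at 27.1, 25.6 and 25.4 CPM with guide 1 and 20.4, 17.8 and 17.5 CPM with guide 2 (log2 change -0.49 ± 0.06 (SE), adjusted p = 0.000435). Siglecg, a sialic acid-binding lectin gene, was at 8.43 and 6.03 CPM (log2 change -0.48 ± 0.07 (SE), adjusted p = 0.0017), and Il11, a cytokine gene of the IL-6 family, at 15.8 and 11.5 CPM (log2 change -0.45 ± 0.07 (SE), adjusted p = 0.00197). The noncoding RNA Wincr1 was at 7.53, 8.22 and 8.78 CPM with guide 1 and 5.03, 5.02 and 6.47 CPM with guide 2 (log2 change -0.57 ± 0.10 (SE), adjusted p = 0.00703), and Tnnt2, cardiac troponin T, at 7.49, 7.57 and 6.51 CPM with guide 1 and 4.99, 4.78 and 5.80 CPM with guide 2 (log2 change -0.47 ± 0.10 (SE), adjusted p = 0.0146). Tnnt2 was no longer called in 2 of 17 alternatives.

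**Figure D4:**
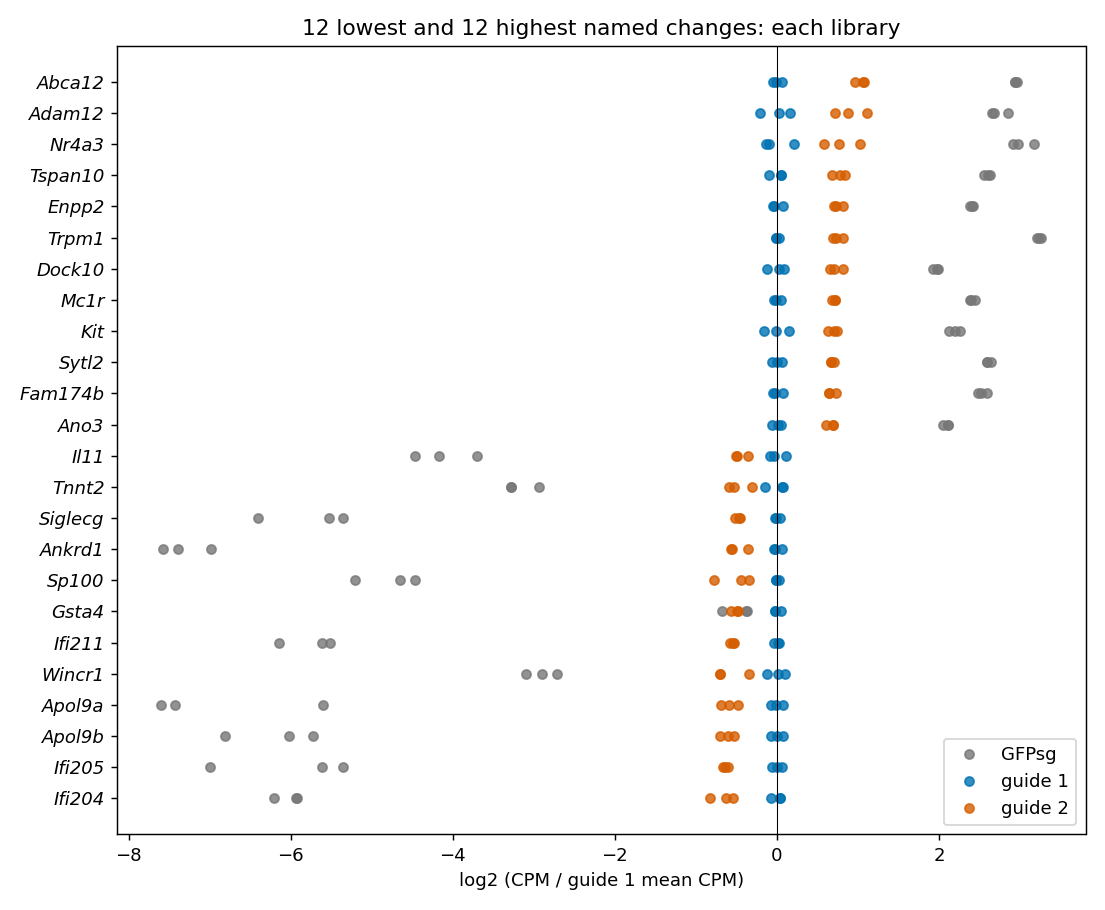
Log2 ratio of CPM in each library to the guide 1 mean, for the 12 largest rises (top) and 12 largest falls (bottom), with guide 1 in blue, guide 2 in orange and GFPsg in grey. Guide 2 points lie apart from guide 1 points for each gene, which the rule that picked these genes required. Except for Gsta4, the guide 2 points lie between guide 1 and GFPsg.

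The genes of sterol synthesis that were called were all higher with guide 2. Of 30 tested genes of cholesterol biosynthesis and uptake, 10 were called higher by edgeR and 0 lower (0 also at an unadjusted p under 0.05 and by DESeq2), with a median log2 change of 0.15. Over all genes, 2.57% were called higher. The count for the list was 12 without guide 2 replicate 1, and 6, 3, 5 and 4 without guide 1 replicates 1, 2 and 3 and guide 2 replicate 2. Insig1, which retains the sterol sensor in the endoplasmic reticulum, was at 153, 157 and 154 CPM with guide 1 and 179.7, 188 and 190.3 CPM with guide 2 (log2 change 0.27 ± 0.04 (SE), adjusted p = 0.000698 by edgeR). Dhcr7, the reductase of a last step, averaged 82.97 ± 2.02 CPM in guide 1 and 98.1 ± 1.64 in guide 2 libraries (0.24 ± 0.04, adjusted p = 0.0019). Hmgcs1, a synthase of the early pathway, was at 108 ± 0.823 and 124 ± 2.17 CPM (0.19 ± 0.03, adjusted p = 0.00612), and was chosen after its values were seen.

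Of 24 tested genes of fatty acid synthesis, 6 were called higher by edgeR and 0 lower (2 at an unadjusted p under 0.05, 0 by DESeq2), with a median of 0.119. Over all genes, 2.57% were called higher. The 6 were Mgll, Acly, Scd1, Scd2, Lpin1 and Elovl6. Mgll, the monoacylglycerol lipase that releases rather than builds lipid, was the leader of that list at 3.32, 3.08 and 3.04 CPM with guide 1 and 5.93, 5.96 and 6.17 CPM with guide 2 (log2 change 0.94 ± 0.09 (SE), adjusted p = 3.62e-05). Acly, which makes cytosolic acetyl-CoA, was at 251, 249.7 and 248 CPM with guide 1 and 308, 287 and 292 CPM with guide 2 (log2 change 0.25 ± 0.04 (SE), adjusted p = 0.00157), with guide 2 replicate 1 the highest. Fasn, fatty acid synthase, was at 371, 357 and 360.4 CPM with guide 1 and 472, 413 and 381 CPM with guide 2 and did not pass (log2 change 0.22 ± 0.06 (SE), adjusted p = 0.0632); its 3 guide 2 libraries were far apart. Without guide 2 replicate 1 the fatty acid count was 7.

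Matrix genes moved in both directions. Of 43 tested, 4 were called higher and 6 lower, beside 2.57% higher and 1.33% lower over all genes. The basement membrane and fibulin genes Nid1 (0.52 ± 0.09), Lama4 (0.32 ± 0.06), Fbln1 (0.43 ± 0.07) and Fbln5 (0.29 ± 0.04) were higher on the log2 scale (adjusted p = 0.0048, 0.00569, 0.00325 and 0.000667 by edgeR). Lower were Spp1, Timp1, Timp3, Sparc, Col12a1 and Thbs1. Spp1, osteopontin (chromosome 5 from 104435118 to 104441050 on the plus strand), was at 215, 222 and 223 CPM with guide 1 and 171, 169 and 177 CPM with guide 2 (log2 change -0.35 ± 0.04 (SE), adjusted p = 6.05e-05). Timp3, an inhibitor of metalloproteases, fell from 49.05 ± 1.98 to 38.6 ± 0.949 CPM (-0.35 ± 0.04, adjusted p = 0.000469). The main collagen and fibronectin genes were not called: Col1a1 was at 236, 224 and 229.5 CPM with guide 1 and 224, 202 and 191 CPM with guide 2 (log2 change -0.16 ± 0.05 (SE), adjusted p = 0.111) and Fn1 at 480.0, 496 and 477 CPM with guide 1 and 502, 429.7 and 391 CPM with guide 2 (log2 change -0.14 ± 0.07 (SE), adjusted p = 0.294). In both of these, guide 2 replicate 1 was the highest guide 2 library. Without guide 2 replicate 1, 11 matrix genes were called lower in place of 6, and without guide 1 replicate 2, 3.

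The contractile and YAP-linked genes that were called were lower, apart from Mylk. Of 34 tested genes of the contractile cytoskeleton and SRF targets, 8 were lower and 1, Mylk, was higher (0.26 ± 0.06, adjusted p = 0.0311 by edgeR), beside 1.33% lower and 2.57% higher over all genes. Mylk was not called without guide 1 replicate 1 or 3 or guide 2 replicate 2, nor with the exon length correction. Tpm2, a tropomyosin gene, was at 19.5, 19.3 and 18.9 CPM with guide 1 and 14.9, 15.5 and 15.8 CPM with guide 2 (log2 change -0.32 ± 0.05 (SE), adjusted p = 0.00411), and Cald1, caldesmon, at 769.8, 777 and 797 CPM with guide 1 and 680.2, 693 and 686 CPM with guide 2 (log2 change -0.19 ± 0.03 (SE), adjusted p = 0.00512). The count of lower calls was 5, 3, 3 and 4 without guide 1 replicates 1, 2 and 3 and guide 2 replicate 2, and 9 without guide 2 replicate 1. Of 28 tested YAP and TEAD targets, 4 were lower, Ankrd1, Ccn1, Ccn2 and Axl, while the median of the list was 0.0167 and 16 of the 28 lay above 0. Of these 4, Ccn1, Ccn2 and Axl are also on the list of the invasive melanoma state, where they were among the 4 called of 18, all lower. Both counts of 4 became 2 without guide 1 replicate 2 or guide 2 replicate 2, and without guide 2 replicate 1 the invasive count became 6, and 5 YAP and TEAD targets were lower and 2 higher. Ccn2, a matricellular protein gene, was at 60.1, 57.8 and 57.95 CPM with guide 1 and 50.9, 45.4 and 48.9 CPM with guide 2 (log2 change -0.28 ± 0.05 (SE), adjusted p = 0.00411). Axl, a receptor kinase gene of dedifferentiated melanoma, was at 138, 137 and 132 CPM with guide 1 and 124, 113 and 112 CPM with guide 2 (log2 change -0.22 ± 0.04 (SE), adjusted p = 0.0109).

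Growth and stress genes showed scattered changes. Of 18 MAPK output genes, Myc, Dusp4, Phlda1 and Etv5 were called higher, beside 2.57% called higher and 1.33% lower over all genes. Myc was at 42.7, 40.5 and 40.7 CPM with guide 1 and 53.2, 51.1 and 50.5 CPM with guide 2 (log2 change 0.32 ± 0.04 (SE), adjusted p = 0.000569 by edgeR). Id2, an inhibitor of bHLH factors that BMP signals induce, was at 69.8, 71.05 and 69.7 CPM with guide 1 and 93.3, 103 and 104 CPM with guide 2 (log2 change 0.51 ± 0.04 (SE), adjusted p = 1.76e-05). Of 21 genes of the TGF-beta and BMP response, Id2 was the 1 called higher and 2 were called lower, with a median of −0.0616. The related genes Id1 (-0.03) and Id3 (-0.08) were not called. Of 29 p53 targets, Trp53inp1, Cdkn1a, Zmat3 and Ephx1 were higher and Plk2 lower. Trp53inp1 was at 116, 114 and 115 CPM with guide 1 and 149.6, 147 and 149 CPM with guide 2 (log2 change 0.37 ± 0.03 (SE), adjusted p = 2.74e-05), and Cdkn1a, the inhibitor p21, rose by 0.23 ± 0.05 (adjusted p = 0.0125). The count of higher p53 targets was 1 without guide 1 replicate 2 or 3, 2 without guide 2 replicate 2 and 5 without guide 2 replicate 1. Of 35 genes of G2 and mitosis, 0 were called by edgeR (11 at an unadjusted p under 0.05, 4 higher and 7 lower, and 1 called by DESeq2), with a median of 0.000161. Of 35 S phase genes 1 was called, Ccne2 (-0.18 ± 0.04, adjusted p = 0.0357), beside 3.89% over all genes. The S phase count was 0 without guide 1 replicate 1, 2 or 3 or guide 2 replicate 2, and 5 without guide 2 replicate 3.

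Antioxidant genes had 4 of 28 called, all lower, beside 1.33% called lower over all genes: Nqo1, Gsta4, Slc7a11 and Srxn1. Nqo1, a quinone reductase gene under NRF2, was at 111, 105 and 108 CPM with guide 1 and 84.9, 85.9 and 83.97 CPM with guide 2 (log2 change -0.35 ± 0.04 (SE), adjusted p = 7.08e-05 by edgeR). The count was 7 without guide 2 replicate 3 and 2 without guide 1 replicate 2 or 3 or guide 2 replicate 2, and without guide 2 replicate 1 there were also 2 called higher. Nupr1, a stress-induced chromatin protein gene, was at 28.9, 28.6 and 31.3 CPM with guide 1 and 21.97, 21.1 and 23.4 CPM with guide 2 (log2 change -0.42 ± 0.06 (SE), adjusted p = 0.000593), and was 1 of 3 called lower among 35 genes of the ATF4 response, whose median was −0.0125. That count of 3 was 1 without guide 1 replicate 1, 2 or 3 or guide 2 replicate 2, 2 without guide 2 replicate 1 and 5 without guide 2 replicate 3. Among chromatin regulators Tet1 and Tet2, the enzymes that oxidize methylcytosine, were the 2 called of 40, both higher, beside 2.57% called higher over all genes. Tet1 was at 8.93, 9.14 and 9.85 CPM with guide 1 and 13.3, 12.5 and 12.3 CPM with guide 2 (log2 change 0.45 ± 0.07 (SE), adjusted p = 0.0018), and Tet2 rose by 0.23 ± 0.05 (adjusted p = 0.0174). That count of 2 was 1 without any 1 of the guide 1 replicates and 8 without guide 2 replicate 3. Of 25 glycolysis genes, Hk2, Gpi1 and Aldoa were called higher, by 0.19, 0.15 and 0.14 on the log2 scale, and 4 were called without guide 2 replicate 1 and 0 by edgeR without guide 1 replicate 1, 2 or 3 or guide 2 replicate 2.

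**Figure D5:**
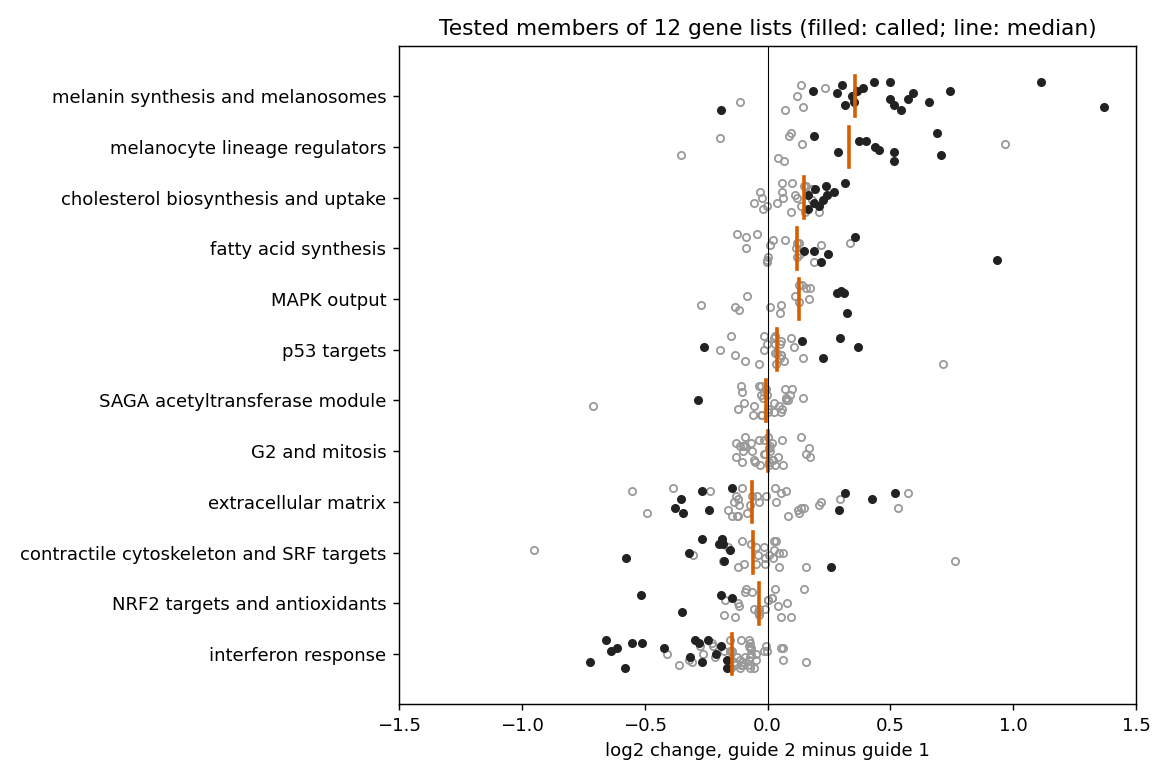
Log2 change of guide 2 minus guide 1 for each tested member of 12 gene lists, filled where called, with the median as an orange line. The medians run from 0.357 for melanin synthesis and melanosomes to −0.146 for the interferon response, and those of SAGA and of G2 and mitosis lie at −0.00551 and 0.000161.

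Genes of ribosomal proteins, oxidative phosphorylation and histones lay slightly low with guide 2 as groups, mostly without single calls. Their total exon length per gene is short, with medians of 1781, 1801 and 593 bases against 3496 bases over all genes tested. Of 79 cytosolic ribosomal protein genes, 75 were below 0 with a median of −0.0768, and 0 were called by edgeR (19 lower at an unadjusted p under 0.05, 3 lower by DESeq2). Of 65 genes of oxidative phosphorylation, 60 were below 0 with a median of −0.0648, and 1 was called, Ndufb2; the count was 0 without guide 1 replicate 2 or 3 or guide 2 replicate 1 or 2. Of 58 clustered histone genes, 55 were below 0, with a median of −0.121, and 5 were called lower (8.62%, beside 1.33% over all genes). With the exon length correction, 1 histone gene was called lower in place of 5, and 1 ribosomal protein gene in place of 0. The oxidative phosphorylation count stayed at 1. With the replicate block, 12 histone, 17 ribosomal protein and 8 oxidative phosphorylation genes were called lower, and 3, 7 and 4 with the block and the correction. Whether gene length plays a part in these shifts was not tested. The shortest quintile of genes of 5 CPM or more had a median fitted log2 change of −0.0616, and guide 2 replicate 1 was the library furthest from guide 1 there. Without that library 1 histone gene was called, and 1, 0 and 1 without guide 1 replicates 2 and 3 and guide 2 replicate 2. Without guide 2 replicate 3, 15 histone, 17 ribosomal protein and 9 oxidative phosphorylation genes were called lower. Transcripts of the mitochondrial genome made up 1.35 to 1.44% of counts with guide 1 and 1.43 to 1.55% with guide 2. They are also short, with a median exon length of 955 bases, but their median log2 change was 0.114. Of these 15, mt-Co1 was the 1 called (0.17 ± 0.04, adjusted p = 0.0345 by edgeR), and it was not called without any 1 of the guide 1 replicates. The mitochondrial count was 10 of 15 with the exon length correction, 9 with the replicate block and 2 without guide 2 replicate 2.

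Changes of 2-fold or more were confined, apart from Abca12, to genes with a mean under 5 CPM. Higher were 12 genes, among them Oca2, Slc24a4 and Cck. Cck, the cholecystokinin gene, had 22, 16 and 22 reads with guide 1 and 67, 61 and 80 reads with guide 2 (log2 change 1.83 ± 0.27 (SE), adjusted p = 0.00125 by edgeR), beside 856, 816 and 897 reads in GFPsg. Slc24a4, a potassium-dependent exchanger gene tied to pigmentation, had 40, 34 and 51 and 124, 89 and 101 reads (log2 change 1.37 ± 0.22 (SE), adjusted p = 0.00275). Col6a5, a collagen VI chain gene, had 0, 0 and 1 reads with guide 1 and 29, 12 and 11 reads with guide 2, with 0, 0 and 0 reads in GFPsg. It was thus seen with guide 2 alone but for 1 read, and no fold is given for it. Hs3st1, Gpr158, Stc1, 2010008C14Rik, Gm20619, Gm15907 and Gm4942 were the other genes higher.

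The 5 genes lower by 2-fold or more had few reads. Ly6a, a surface antigen gene that interferon induces, had 17, 20 and 16 reads with guide 1 and 4, 5 and 0 with guide 2 (log2 change -2.48 ± 0.60 (SE), adjusted p = 0.0364 by edgeR). Akr1c20, an aldo-keto reductase gene, had 78, 72 and 71 and 33, 32 and 28 reads (log2 change -1.21 ± 0.22 (SE), adjusted p = 0.00661). Pla1a, a phospholipase gene, had 46, 43 and 35 and 18, 18 and 18 reads (log2 change -1.16 ± 0.29 (SE), adjusted p = 0.0428). The remaining 2 were 8030451A03Rik and Gm37008. All 17 were named because of their number, after their values were seen. The count of 17 was 13, 8 and 9 without guide 1 replicates 1, 2 and 3, and 13, 10 and 24 without guide 2 replicates 1, 2 and 3.

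Guide 2 levels lay between those of guide 1 and GFPsg for most of the genes described. To set a size to this, genes averaging 5 CPM or more over the 9 libraries whose guide 1 and GFPsg means differed at least 2-fold were taken, and the guide 2 mean was placed on a linear scale from 0% at guide 1 to 100% at GFPsg. Guide 1 libraries set both the choice of genes and the start of the scale, so the values are a description with no test. The median place was 14.0% (quartiles 10.4 and 18.3) over 292 genes that were lower with guide 1 than in GFPsg, and 13.0% (quartiles 7.03 and 19.3) over 454 that were higher. On a log2 scale the same medians were 23.1% and 7.10%.

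The guide 2 libraries took up like places among the genes lower with guide 1, at medians of 13.7, 14.3 and 13.7%. Among those higher with guide 1, replicate 1 was at 8.37% and replicates 2 and 3 at 15.5 and 15.8%. A guide 1 library placed against the other 2 lay between −1.04 and 0.786%. Genes differed: on the linear scale Tyr was at 8.94%, Trpm1 at 8.01%, Pmel at 11.5%, Mitf at 16.3% and Sox10 at 23.05%. Among the genes that fell with guide 2, Ifi204 was at 37.2%, Ifi211 at 32.4%, Apol9b at 35.0% and Nupr1 at 48.5%, and Usp18 at 16.4% and Axl at 15.8%. The order depends on the scale: on the log2 scale Tyr was at 22.7%, Pmel at 24.3%, Mitf at 26.3% and Sox10 at 32.9%, and Ifi204 at 10.95%, Ifi211 at 9.63% and Apol9b at 9.99%. These single genes were picked for their change between the guides, so their places do not stand for all genes. The median over 48 genes of the interferon response was 11.4% on the linear scale and 5.59% on the log2 scale, and that over 18 genes of melanin synthesis and melanosomes was 12.1% and 23.2%.

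The labelled cell type was checked against markers. Melanocyte markers were abundant in all 6 libraries, with Tyrp1 at 2559.9 CPM with guide 1 and 3617 CPM with guide 2. Of 18 leukocyte markers, 5 passed the filter on low counts and 0 were called by edgeR (3 lower at an unadjusted p under 0.05, 1 by DESeq2), and Ptprc, Cd3e, Cd3g, Itgam and Tyrobp had no read in any of the 6 libraries. Their summed level was 7.33 to 7.84 CPM with guide 1 and 6.42 to 6.74 CPM with guide 2. Fibroblast and endothelial markers summed to 253 to 265 CPM and 217 to 252 CPM, mostly from Col1a1, with Dcn at 0 and 0 of 7 tested genes called by edgeR (2 lower at an unadjusted p under 0.05, 2 by DESeq2, 1 without guide 2 replicate 1). Epithelial markers summed to 0.62 to 0.768 CPM with guide 1 and 0.624 to 0.74 CPM with guide 2. Neuronal and Schwann cell markers summed to 96.2 to 101 CPM and 109 to 114 CPM. S100b, which melanocytes also express, was the 1 of 6 tested genes called (0.31 ± 0.06, adjusted p = 0.0146 by edgeR). That count was 0 without guide 1 replicate 2 or guide 2 replicate 2, and 3 without guide 2 replicate 1. Over all genes tested, 3.89% were called, the share to set beside the counts of these short marker lists. The part of these cell types in the results was not tested. Of 9 Y-linked genes, 8 had no read in any of the 6 libraries. By chromosome, the median log2 change ran from −0.0253 on chromosome 13 to 0.0108 on chromosome 8, and the share of tested genes called from 2.63% on chromosome 18 to 5.12% on chromosome 15.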

How the data were processed

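RNA of B16F10 cells was extracted with RNeasy Plus Mini and made into libraries with the KAPA Stranded mRNA-Seq kit, per the labels' protocols. The deposited values are raw counts of reads per gene, with no normalization by the authors. Per the submitters' processing notes, bcl2fastq, HISAT2, HTSeq and mm10 were used; versions, annotation release and strand setting are not given in the sources used here. Reads over overlapping, antisense or near-identical genes may therefore be divided unevenly.

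Of 54752 gene identifiers, 54723 matched GENCODE M21. The 6 libraries were filtered with filterByExpr (count minimum 10), scaled by TMM and tested with edgeR 4.0.16 (quasi-likelihood F test, R 4.3.3). P-values were adjusted by Benjamini-Hochberg over 17383 genes and called under 0.05. SE is the log2 change over the square root of F. CPM for all 9 libraries use the scale of the 6. The pipeline was tested on simulated counts. It called 67 of 96 genes simulated with a 1.5-fold change and 81 of 100 with a 2-fold change. It also called 13 genes simulated with no change.

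The genes named are Tada2b, the 12 largest rises and falls among called genes of at least 5 CPM with groups that did not overlap and no clone name, and up to 3 called members with the lowest p of each list with at least 5 tested members. Other genes were picked with their values in view, and some genes that the rule picks are not reported here. The comparison and the 43 gene lists were chosen with earlier results of these data known. Alternatives were other scalings, filters, DESeq2 1.42.0, a fit of all 9 libraries, fold thresholds in the test, the replicate block and leaving out each library.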

Additional observations from a re-analysis of the deposited data

How the results depend on the processing

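The direction of each of the 87 named genes was the same in the 17 alternatives computed for single genes, and 50 of the 87 were called in each. The 677 calls became 286 to 1423 when 1 library was left out, 1273 with no filter on low counts (of 30816 genes), 83 when edgeR's glmTreat asked for more than 1.2-fold and 0 for more than 1.5-fold (97 at an unadjusted p under 0.05). The glmTreat settings are not among the 17 alternatives. Of the 87 named genes, 24 were called by glmTreat at 1.2-fold and 0 at 1.5-fold. DESeq2 called 992, and other scalings between 639 and 674. The 17 genes at 2-fold or more became 8 to 24 without 1 library, 3 with DESeq2, 39 with no filter and 10 with a count minimum of 50. For Tada2b the log2 change ran from −0.34 to −0.25 without 1 library, and at −0.27 (without guide 1 replicate 2) and −0.26 (without guide 2 replicate 2) it missed the threshold. The cause was not tested.

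The labels do not say whether replicate numbers pair the libraries, and the main fit used no pairing. Deviations from the group mean correlated at 0.193, 0.0636 and 0.329 between same-numbered libraries of the guides. Between libraries of different number they correlated between −0.266 and 0.0519, so each library correlated best with its own number. Whether same-numbered libraries share a culture or day was not tested. With the replicate block 1417 genes were called (764 higher, 653 lower), and 1390 with the block and an exon length correction, the latter added after seeing the data. Tada2b stayed called in both. Depth limits genes with few reads most, and the number of libraries, 3 a group, limits the precision of all of them.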
